A study of Mus musculus with 6 samples.

Results

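The genes described here are 10 imprinted genes that control growth: H19, Meg3, Rian, Peg3, Cdkn1c, Mest, Dlk1, Grb10, Plagl1 and Ndn. They were taken by gene symbol from a count table of 55494 rows, all 10 were found, and all 10 were among the 16097 genes with enough counts to be tested. The study asked how 11,12-EET, an epoxide of arachidonic acid formed by cytochrome P450 enzymes, acts on muscle stem cells. Primary muscle stem cells (MuSCs) of wildtype mice were cultured for 2 days without EET (3 control libraries) or with it (3 EET libraries), and poly(A) RNA was sequenced. The labels state no dose, control medium, or age or sex of the mice. They also leave unsaid whether a group's libraries are separate animals or cultures. The p-values therefore measure only the spread between libraries, which may be technical.

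An imprinted gene is expressed mainly from the chromosome inherited from the mother or mainly from that inherited from the father. The choice is set by DNA methylation laid down in the germ line at imprinting control regions, and neighbouring imprinted genes share such a region and form a cluster. Many imprinted genes act on growth, and a group of them, with the transcription factor Plagl1 and the noncoding RNA H19 among its proposed regulators, is known as the imprinted gene network. In muscle, Peg3 (also called PW1) marks stem and interstitial cells, necdin, the product of Ndn, promotes differentiation, and p57, the product of Cdkn1c, takes part in leaving the cell cycle. Expression here is counted per gene, so the parental allele of a read is not known.

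Of the 10 genes, 2 rose with EET (H19 and Ndn), 3 fell (Peg3, Grb10 and Plagl1) and 5 did not pass the test (quasi-likelihood test of edgeR, adjusted p under 0.05 by Benjamini-Hochberg over all genes tested). The changes were small: H19 was 1.39-fold higher and Ndn 1.25-fold higher, while Plagl1 was 1.49-fold, Peg3 1.40-fold and Grb10 1.26-fold lower. A large part of the transcriptome also differed between the groups: 47.9% of all genes tested passed, 24.6% as higher and 23.3% as lower. The 5 calls among 10 genes are near that background. For 6 of the 10 genes the 3 EET libraries did not overlap the 3 controls, against 57.7% of all genes tested. The median log2 fold change of the 10 genes was 0.18, and that of all genes tested was 0.005.

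The change of a gene in these libraries moved with the length of its transcript. Over 13815 protein-coding genes tested, the log2 fold change and the length of the longest transcript had a Spearman rho of −0.68, and over the 10 imprinted genes it was −0.64 (both across genes, which share the same 6 libraries). Per doubling of length, the deviation of a library from the mean of all 6 changed by 0.116, 0.236 and 0.243 log2 units in controls 1, 2 and 3 and by −0.269, −0.215 and −0.111 in EET 1, 2 and 3. Of the pairs of a control and an EET library, control 1 and EET 3 were the nearest on this measure. A fit with each library's trend with transcript length and GC content removed is given beside the counts as they are. Its values are relative to transcripts of like length and GC content. In that fit 5 of the 10 genes were higher (H19, Ndn, Meg3, Rian and Peg3) and 1 was lower (Plagl1), where 32.4% of all genes passed, 15.6% as higher and 16.9% as lower. The calls of H19, Ndn and Plagl1 had the same direction in both fits, Peg3 was called in opposite directions, and Grb10 was called in the first fit only.

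**Figure D1:**
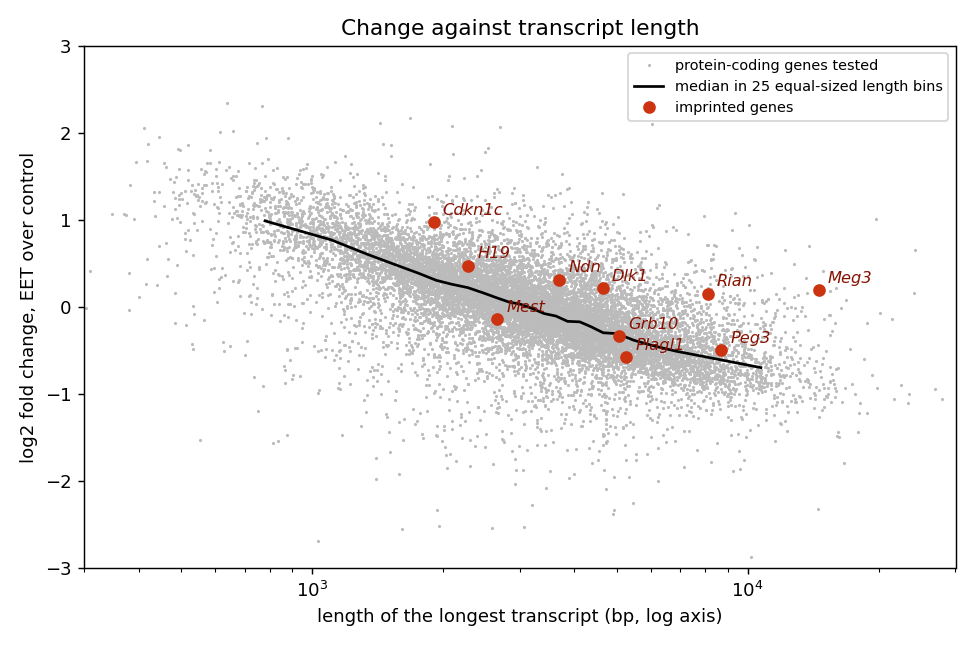
Log2 fold change of EET over control against the length of the longest transcript (log axis); grey points are protein-coding genes tested, the line joins medians of 25 bins of equal size, and red points are the 10 imprinted genes. The medians fall as length rises; of the 10 genes the short H19 lies at 0.48 and the long Peg3 at −0.49, while the longest, Meg3, lies at 0.20, and 8 grey points fall outside the axes.

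Markers of muscle stem cells were abundant, and markers of other cell types were present in every library. Pax7, whose product is the defining factor of muscle stem cells, fell from 114 ± 4.71 CPM in controls to 83.5 ± 1.64 CPM under EET (mean ± SD, n = 3 each; CPM is counts-per-million of the TMM-adjusted library size). Myf5, another stem cell marker, rose from 171 ± 7.08 to 204 ± 14.8 CPM (log2 fold change 0.26, adjusted p = 0.0078). Myod1, a myogenic determination factor, rose from 977 ± 42.4 to 1159 ± 13.9 CPM. Myog, which starts terminal differentiation, rose from a low level of 0.681 ± 0.206 to 1.39 ± 0.292 CPM (log2 fold change 1.02, adjusted p = 0.0278). With the length and GC trend removed, Myod1 was called in the opposite direction (−0.15, adjusted p = 0.0183). Pax7 (−0.05, adjusted p = 0.491), Myf5 (−0.04, adjusted p = 0.62) and Myog (0.51, adjusted p = 0.306) were not called in that fit. Of 10 muscle stem cell markers 5 rose and 2 fell, and of 9 markers of differentiating muscle 6 rose and 1 fell. In the second fit these were 2 and 1 (median log2 fold change −0.04, against 0.18 as counted) and 3 and 0 (0.16 against 0.91). For these and the marker counts below, the background over all genes tested is 24.6% higher and 23.3% lower as counted. With the trend removed it is 15.6% and 16.9%. Markers of endothelial cells summed to 309 to 321 CPM in controls and 194 to 208 CPM with EET, and 6 of 10 fell and 1 rose. Fibro-adipogenic markers summed to 539 to 557 and 503 to 508 CPM (2 of 10 fell, 0 rose), mural cell markers to 384 to 402 and 339.6 to 364 CPM (5 of 8 fell, 2 rose) and Schwann cell markers to 469.8 to 479.9 and 348 to 389 CPM (6 of 8 fell, 1 rose). Leukocyte markers summed to 296 to 327 CPM in controls and 185 to 368 CPM with EET (2 of 8 fell, 0 rose). No marker of these lists was at 0 in all libraries, and with the trend removed 7 endothelial, 5 fibro-adipogenic, 3 mural, 5 Schwann and 4 leukocyte markers were lower and 1 leukocyte marker was higher. The part of these cells in the changes below was not tested, and in bulk RNA fewer cells of a type and less RNA per cell cannot be told apart.

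Per length, the 10 genes spanned a wide range of levels. H19 was the highest at 78.3 ± 4.79 CPM per kb of merged exons in controls (mean ± SD, n = 3), followed by Grb10 at 35.7 ± 2, Peg3 at 18.8 ± 2.28, Ndn at 7.38 ± 0.679, Plagl1 at 6.3 ± 0.472 and Mest at 3.53 ± 0.27. Far below came Rian at 0.641 ± 0.0308, Meg3 at 0.633 ± 0.0606, Cdkn1c at 0.329 ± 0.0638 and Dlk1 at 0.261 ± 0.0673. The control libraries of neighbours in this order did not overlap, except for Rian with Meg3 and for Cdkn1c with Dlk1. With EET the order was the same but for Rian (0.714 ± 0.0751) and Meg3 (0.726 ± 0.181), which changed places within their spread. Divided by the longest transcript instead, the control levels of Plagl1 (9.37 CPM per kb) and Ndn (7.38) also changed places, so that pair's order depends on the transcript model. Together the 10 genes took up 0.0904 ± 0.00439% of the counts of control libraries and 0.0794 ± 0.00381% of those of EET libraries (n = 3 each, exact two-sided permutation p = 0.1, the smallest that 3 against 3 libraries can give).

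**Figure D2:**
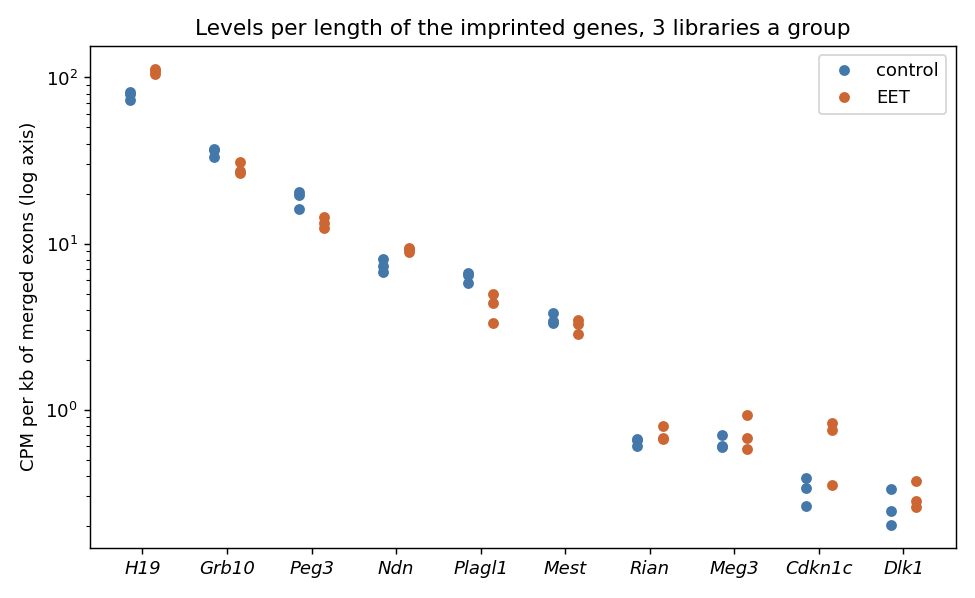
CPM per kb of merged exons (log axis) of the 10 imprinted genes in each library, blue for control and orange for EET, 3 points a group. H19 lies at 73 to 82.2 in controls and 105 to 113 with EET, and Dlk1, the lowest, at 0.202 to 0.334 and 0.26 to 0.373.

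H19 is a noncoding RNA transcribed from the maternal allele beside Igf2, and its first exon holds the hairpin of miR-675. The gene spans chromosome 7 from 142575529 to 142578143 (minus strand, GRCm38), with a longest transcript of 2286 bp. It stood at 202, 196 and 179 CPM in the controls and at 278, 269 and 258 CPM with EET. Every EET library lay above every control, and H19 was the most abundant of the 3 noncoding RNAs in all 6 libraries. The log2 fold change was 0.48 ± 0.07 (± SE of the edgeR fit, adjusted p = 4.59e-05), or 0.26 ± 0.04 once the length and GC trend was removed (adjusted p = 0.000129). With merged exon length in place of the longest transcript that value fell to 0.11 and was not called (adjusted p = 0.0994). H19 took 0.0197 ± 0.00105% of all counts in control libraries and 0.0262 ± 0.00061% in EET libraries (exact permutation p = 0.1, n = 3 each).

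The H19 ratio to other imprinted genes does not depend on library scaling. Per count of Peg3, H19 had 0.936, 0.718 and 0.684 counts in the controls and 1.67, 1.53 and 1.34 with EET. Per count of Grb10 it had 0.666, 0.594 and 0.53 in the controls and 1.14, 1.08 and 0.918 with EET. Both ratios were higher in every EET library than in any control (exact two-sided permutation p = 0.1 each, the smallest possible, and 0.144 after Benjamini-Hochberg adjustment over the 13 shares and ratios computed). Both partners have longer transcripts than H19, and the length trend alone gave H19 a log2 change of 0.22, Peg3 one of −0.64 and Grb10 one of −0.34. Igf2, the paternally expressed growth factor gene whose end lies 72.6 kb from H19, had only 10 to 27 counts a library, or 0.566 ± 0.0684 CPM on average in the controls and 0.507 ± 0.312 CPM under EET (log2 fold change −0.16 ± 0.49, adjusted p = 0.813).

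The mature miRNAs made from within H19 and Mest are shown because a poly(A) gene count does not report them: Mir675, inside H19, had 0 counts in all 6 libraries, but its 84 bp lie in H19 exons on the same strand, so its row gives no level, and Mir335, inside Mest, had at most 1. Sequences are from RefSeq (GRCm38.p6), written 5′ to 3′ with the seed, bases 2 to 8, in capitals, and no seed is shared among the 4.
mmu-miR-675-5p: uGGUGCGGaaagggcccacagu
mmu-miR-675-3p: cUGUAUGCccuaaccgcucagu
mmu-miR-335-5p: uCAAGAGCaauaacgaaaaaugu
mmu-miR-335-3p: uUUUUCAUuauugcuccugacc

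Meg3, Rian and Dlk1 lie in the Dlk1-Dio3 cluster on the plus strand of chromosome 12. Meg3 and Rian are noncoding RNAs of the maternal allele, Rian being a host of C/D box snoRNAs, and Dlk1 encodes a transmembrane protein of the Notch ligand family from the paternal allele. Dlk1 ends 77.7 kb before Meg3, and Meg3 ends 32.2 kb before Rian. Meg3 was at 10.7, 10.9 and 12.7 CPM in the controls and at 12.2, 16.8 and 10.4 CPM with EET. Its groups overlapped, since EET 2 was the highest of all 6 libraries and EET 3 the lowest. The log2 fold change was 0.20 ± 0.16 (adjusted p = 0.331), and leaving out EET replicate 2 brought it to −0.01 (adjusted p = 0.949).

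Rian was at 11.0, 12.1 and 12.0 CPM in the controls and at 12.4, 14.6 and 12.1 CPM with EET. The EET libraries lay above the controls by a narrow margin, and the difference was not called (log2 fold change 0.16 ± 0.12, adjusted p = 0.297). Counts of Meg3 per count of Rian averaged 0.981 ± 0.0799 for the controls and 0.999 ± 0.144 for the EET libraries (n = 3 each, exact permutation p = 0.9).

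Without the length and GC trend both noncoding RNAs were called higher, Meg3 by 1.05 ± 0.22 (adjusted p = 0.0065) and Rian by 0.57 ± 0.11 (adjusted p = 0.000596). On that scale Meg3 was at 9.36, 7.49 and 8.84 in the controls and 17.5, 23.5 and 12.5 with EET, and Rian at 10.6, 9.72 and 10.04 and at 16.0, 16.4 and 12.7. For both, EET 3 was the lowest EET library and still above every control. These values rest on the annotated lengths, 14548 bp for the longest Meg3 transcript and 8089 bp for that of Rian. A trend fitted on protein-coding genes was applied to them, and which isoforms the cells express is not known. Both kept their calls in each of the 10 alternatives of that fit, among them the use of merged exon length.

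Dlk1 had 36 to 72 counts a library, the second lowest of the 10 genes. It was at 1.89, 1.39 and 1.14 CPM in the controls and at 1.6, 1.47 and 2.11 CPM with EET, which overlapped (log2 fold change 0.22 ± 0.29, adjusted p = 0.565). In the second fit it was at 0.47 ± 0.29 (adjusted p = 0.229). Of the other genes of the cluster, Begain was at 0.49 ± 0.25 (adjusted p = 0.115) and the noncoding RNA Mirg at 0.74 ± 0.58 (adjusted p = 0.324), so none of its 5 tested genes was called as counted, and all 5 estimates were above 0.

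**Figure D3:**
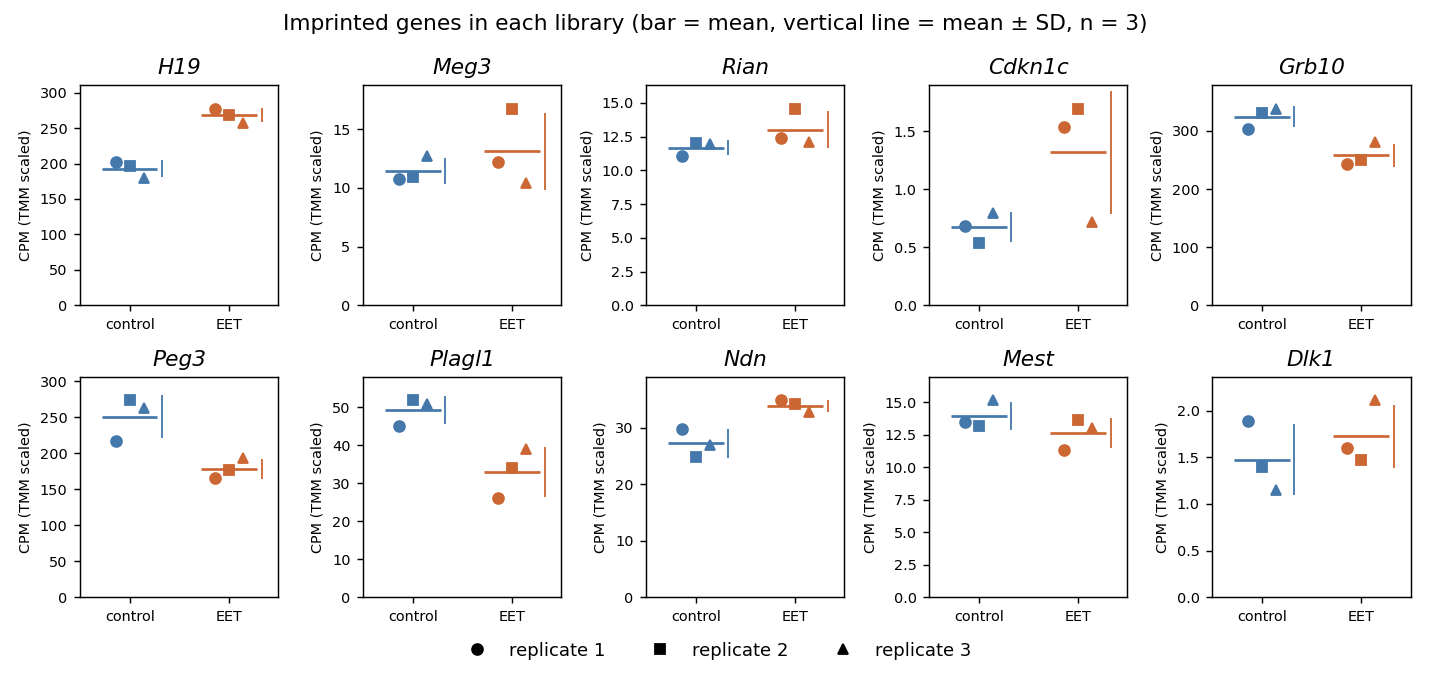
CPM (TMM scaled) of each of the 10 imprinted genes in the 3 control (blue) and 3 EET (orange) libraries, on axes that start at 0; symbols mark the replicate number, horizontal bars the mean and vertical lines the mean ± SD. H19, Ndn and Rian lie higher in every EET library than in any control, Peg3, Grb10 and Plagl1 lower, and the other genes overlap.

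Plagl1 encodes a zinc finger transcription factor, also called ZAC1, that restrains proliferation and is expressed from the paternal allele. It had the largest fall of the 10 genes. Plagl1 was at 45, 51.9 and 50.9 CPM in the controls and at 26, 34.1 and 39 CPM with EET. Every EET library lay below every control, with EET 1 the lowest and EET 3 nearest to the controls. The log2 fold change was −0.58 ± 0.12 (adjusted p = 0.00128), and −0.79 without control 1 and EET 3 (adjusted p = 5.76e-07). With the trend removed the change was −0.23 ± 0.09 (adjusted p = 0.0461), a call lost without any of control 1, 2 or 3, EET 1 or EET 2 (adjusted p = 0.0592, 0.151, 0.135, 0.247 and 0.0629). On that scale the controls were at 42.2, 44.6 and 43.9 and the EET libraries at 31, 39 and 41.2, still without overlap.

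Peg3 encodes a large zinc finger protein of the paternal allele and spans chromosome 7 from 6703892 to 6730431 (minus strand), with a longest transcript of 8694 bp. It was at 216, 273 and 262 CPM in the controls and at 166, 176 and 193 CPM with EET. Control 1 was the lowest control and EET 3 the highest EET library, and the groups did not overlap. The log2 fold change was −0.49 ± 0.09 (adjusted p = 0.000345). In the second fit Peg3 was called higher, by 0.15 ± 0.04 (adjusted p = 0.0134), at 194, 207 and 200 in the controls and 221, 225 and 219 with EET. That call was lost with merged exon length (0.05, adjusted p = 0.451) and without control 1, control 3 or EET 2 (adjusted p = 0.0504, 0.0516 and 0.0611). In that fit, the fall of Peg3 as counted was smaller than the trend gave for its length and GC content.

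Grb10 encodes an adaptor protein that binds the insulin and IGF1 receptors and restrains their signal, and in most tissues it is expressed from the maternal allele. It was the gene with the most counts of the 10, from 7805 to 12331 a library. Grb10 was at 304, 330.3 and 339 CPM in the controls and at 243, 249.7 and 281 CPM with EET. All EET libraries lay below all controls, and the log2 fold change was −0.33 ± 0.07 (adjusted p = 0.00165). For Grb10 the trend-removed difference was 0.0077 ± 0.04 (adjusted p = 0.913), with 288 ± 5.52 in controls and 289.6 ± 6.87 with EET. The fall of Grb10 was thus the size that the trend gave transcripts of its length (5061 bp) and GC content.

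Promoter windows are shown for Peg3, Grb10 and Plagl1, which fell, and Ndn, which rose. Each runs from 250 bases before to 50 after a RefSeq start. Imprinted expression is set by methylation of CpG sites at imprinting control regions. Whether these windows lie in such regions was not examined, and methylation itself was not measured here. RefSeq promoters on GRCm38.p6 held 12 windows for 8 of the 10 genes (H19 and Cdkn1c had no entry). Capitals mark CpG sites, each written 5′ to 3′ on the gene's strand. The windows are chr7:6730370-6730669 (minus, across the annotated start of Peg3), chr11:12037371-12037670 (minus, inside the annotated span of Grb10), chr10:13090582-13090881 (plus, inside that of Plagl1) and chr7:62348027-62348326 (plus, inside that of Ndn).
Peg3: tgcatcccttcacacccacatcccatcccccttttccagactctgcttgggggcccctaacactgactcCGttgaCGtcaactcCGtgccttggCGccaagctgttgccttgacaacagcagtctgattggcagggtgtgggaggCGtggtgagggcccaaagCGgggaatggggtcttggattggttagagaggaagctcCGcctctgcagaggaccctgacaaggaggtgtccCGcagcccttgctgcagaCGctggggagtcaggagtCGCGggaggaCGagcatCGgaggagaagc
Grb10: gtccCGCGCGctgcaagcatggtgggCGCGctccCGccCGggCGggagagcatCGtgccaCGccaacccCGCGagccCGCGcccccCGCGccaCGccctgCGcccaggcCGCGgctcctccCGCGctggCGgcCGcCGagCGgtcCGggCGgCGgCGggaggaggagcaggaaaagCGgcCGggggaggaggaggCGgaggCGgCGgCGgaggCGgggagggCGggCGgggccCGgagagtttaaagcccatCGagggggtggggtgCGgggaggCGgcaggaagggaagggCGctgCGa
Plagl1: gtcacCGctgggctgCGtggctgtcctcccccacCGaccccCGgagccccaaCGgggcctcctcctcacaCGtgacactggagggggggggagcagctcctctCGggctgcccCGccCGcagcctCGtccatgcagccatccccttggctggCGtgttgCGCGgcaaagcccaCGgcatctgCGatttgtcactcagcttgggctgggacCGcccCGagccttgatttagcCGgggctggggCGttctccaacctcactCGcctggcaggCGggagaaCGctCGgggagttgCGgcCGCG
Ndn: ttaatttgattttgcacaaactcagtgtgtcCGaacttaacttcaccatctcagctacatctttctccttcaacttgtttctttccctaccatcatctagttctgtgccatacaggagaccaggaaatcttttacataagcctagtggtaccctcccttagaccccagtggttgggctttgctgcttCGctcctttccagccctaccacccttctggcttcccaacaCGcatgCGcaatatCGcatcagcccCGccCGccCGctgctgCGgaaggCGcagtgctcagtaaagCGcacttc

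These windows differ in CpG content. Grb10 has 45 CpG sites and 80.0% GC, and 1.65% of all 32851 windows hold more sites. Plagl1 has 26 (15.5% hold more), Peg3 13 (36.3%) and Ndn 11 (39.6%), where the median of all windows is 7. The other Grb10 window has 9 sites, the Dlk1 window 9 and the Rian window 0. GGGGCCCC, the core of a motif described for the Plagl1 protein, was searched on both strands and was found in 1 of the 12 windows, that of Peg3, against 1.08% of all windows. The E-box CAGCTG was in 1 window (Mest; 16.3% of all) and TATAAA in 1 (Meg3; 13.6% of all). A match is a description of these letters and does not show binding.

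Ndn encodes necdin, a MAGE family protein of the paternal allele, from a gene of 1 exon that spans chromosome 7 from 62346569 to 62350262 (plus strand). It was at 29.9, 24.9 and 27 CPM in the controls and at 34.9, 34.2 and 32.8 CPM with EET. The EET libraries all lay above the controls and close together, with a coefficient of variation of 3.13% against 9.2% in controls. The log2 fold change was 0.32 ± 0.09 (adjusted p = 0.00952), and the call was lost without control replicate 2, the lowest library (0.25, adjusted p = 0.071). Ndn was also higher with the trend removed, by 0.42 ± 0.08 (adjusted p = 0.000643), a call present in each of that fit's 10 alternatives. With merged exon length the value was 0.23.

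Cdkn1c encodes p57, an inhibitor of cyclin-dependent kinases expressed from the maternal allele, and lies 880 kb from H19 on chromosome 7. It was the least counted gene, with 20 to 26 counts in the controls and 54, 53 and 23 with EET. That is 0.683, 0.536 and 0.795 CPM in the controls and 1.54, 1.7 and 0.715 CPM with EET, so EET 1 and EET 2 stood above the controls and EET 3 among them. The log2 fold change of 0.97 ± 0.39 was the largest of the 10 genes and narrowly missed the threshold (adjusted p = 0.0523). It passed if EET 3 was left out (1.27, adjusted p = 0.00795), without control 1 and EET 3 (1.27, adjusted p = 0.0164) and with counts divided by 2 (1.00, adjusted p = 0.0358). It did not pass without EET 1, EET 2 or control 2 (adjusted p = 0.149, 0.2 and 0.161), or with DESeq2 or limma-voom (adjusted p = 0.0858 and 0.0845). With the trend removed it was at 0.58 ± 0.38 (adjusted p = 0.273). An antisense gene whose exons overlap 30.7% of those of Cdkn1c had 0 counts in all libraries.

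Mest encodes a protein related to hydrolases, from the paternal allele, and hosts miR-335. It was at 13.5, 13.2 and 15.1 CPM in the controls and at 11.3, 13.6 and 13 CPM with EET. The groups overlapped, and the log2 fold change was −0.14 ± 0.11 (adjusted p = 0.347), or −0.23 ± 0.11 with the trend removed (adjusted p = 0.107). Of the merged exons of Mest, 912 bp (23.1%) overlap exons of Copg2 on the other strand. Reads there cannot be told apart if the counting ignored strand, and no source used here gives its strand setting. Copg2, a coat protein subunit gene, fell from 33.6 ± 1.78 to 27.1 ± 1.41 CPM (−0.31 ± 0.09, adjusted p = 0.00836; −0.16 and not called with the trend removed, adjusted p = 0.117).

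**Figure D4:**
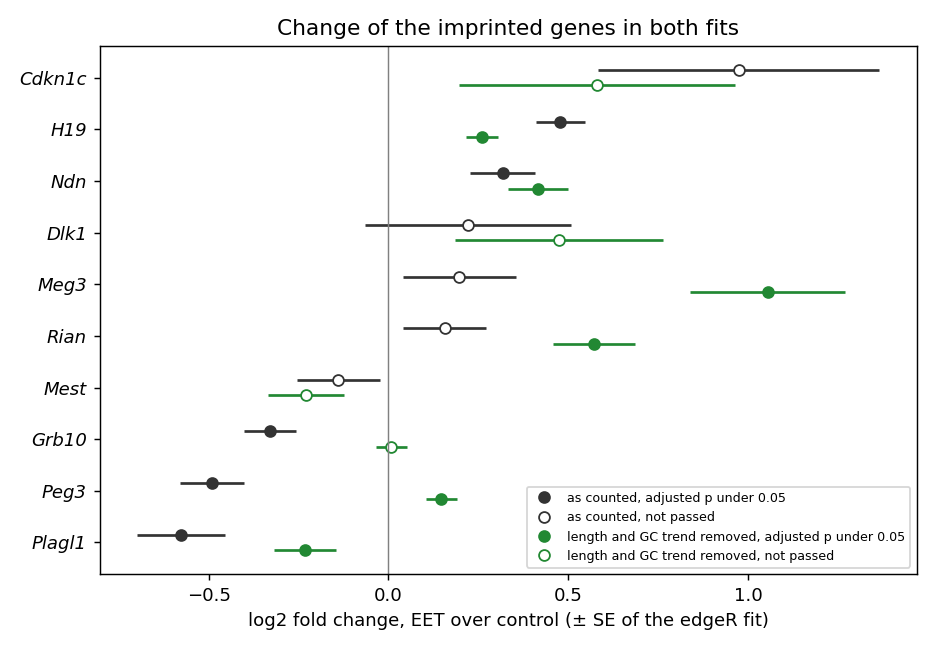
Log2 fold change of EET over control with its standard error for each of the 10 genes, black for counts as they are and green with the length and GC trend removed; filled points have an adjusted p under 0.05. Peg3 lies at −0.49 and 0.15, Grb10 at −0.33 and 0.01, and Meg3 at 0.20 and 1.05 in the 2 fits, while H19, Ndn and Plagl1 lie on the same side of 0 in both.

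The 10 genes were also grouped by the allele that is expressed. As counted, of the 5 maternally expressed genes (H19, Meg3, Rian, Cdkn1c, Grb10) 1 rose and 1 fell, with a median log2 fold change of 0.20. Of the 5 paternally expressed genes (Peg3, Mest, Dlk1, Plagl1, Ndn) 1 rose and 2 fell, with a median of −0.14. With the trend removed 3 maternal genes were higher and 0 lower (median 0.57), and 2 paternal genes were higher and 1 lower (median 0.15). The 3 maternal genes were the noncoding RNAs H19, Meg3 and Rian, to which a trend fitted on protein-coding genes was applied. H19 was not called with merged exon length (adjusted p = 0.0994). Over all genes tested 24.6% were higher and 23.3% lower as counted, and 15.6% and 16.9% with the trend removed. The difference between these groups was not tested.

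Neighbours of the 10 genes were described cluster by cluster. In the Peg3 cluster, the paternal gene Usp29 was at 4.03 ± 0.311 and 4.75 ± 0.321 CPM (log2 fold change 0.24 ± 0.17, adjusted p = 0.27) and the maternal gene Zim1 at 8.5 ± 1.01 and 6.44 ± 1.27 CPM (−0.40 ± 0.17, adjusted p = 0.0601). Counts of Peg3 per count of Usp29 went from 62.0 ± 4.53 to 37.7 ± 3.92 (exact permutation p = 0.1, n = 3 each), and per count of Zim1 they were 29.5 ± 1.04 and 28.5 ± 6 (exact permutation p = 0.8, n = 3 each). In the second fit Usp29 was called higher, as Peg3 was (0.76, adjusted p = 0.00181). In the Plagl1 region Phactr2 fell with Plagl1 (−0.55 ± 0.11, adjusted p = 0.000957) and Sf3b5, which encodes a splicing factor subunit, rose from 29.8 ± 2.6 to 76.4 ± 8.32 CPM (1.36 ± 0.10, adjusted p = 6.36e-07). In that second fit Phactr2 was at 0.04 and not called (adjusted p = 0.698), and Sf3b5 was at 1.49 (adjusted p = 2.16e-06). This Sf3b5 value rests on an annotated length of 3841 bp, and the length of the transcript in these cells is not known.

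In the cluster of Cdkn1c, the noncoding RNA Kcnq1ot1, whose transcription silences the genes around it on the paternal allele, fell from 24.6 ± 1.52 to 20.5 ± 1.21 CPM (−0.27 ± 0.09, adjusted p = 0.0299; −0.19 and adjusted p = 0.0853 with the trend removed). For its annotated 93092 bp and GC content the trend, fitted on protein-coding genes, gave −0.076, against −0.86 for Meg3 at 14548 bp. How well that trend holds at such a length was not tested. Tssc4 rose from 27.2 ± 2.37 to 45.9 ± 6.35 CPM (0.75 ± 0.11, adjusted p = 3.99e-05; 0.21 with the trend removed) and Osbpl5 had −0.26 ± 0.07 (adjusted p = 0.00413; −0.11 and adjusted p = 0.113 with the trend removed). Cd81 and Nap1l4, not called as counted, were called lower in the second fit (−0.36 and −0.14, adjusted p = 1.97e-05 and 0.0188). In the cluster of Ndn, Snrpn rose (0.48 ± 0.17, adjusted p = 0.0328), the ubiquitin ligase gene Ube3a had −0.43 ± 0.10 (adjusted p = 0.00225) and Atp10a −0.65 ± 0.11 (adjusted p = 0.000178). Of these 3, Atp10a alone was called with the trend removed (−0.27, adjusted p = 0.0122). Beside Grb10, Cobl had −0.53 ± 0.13 (adjusted p = 0.00261), and −0.12 and no call with the trend removed (adjusted p = 0.453).

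**Figure D5:**
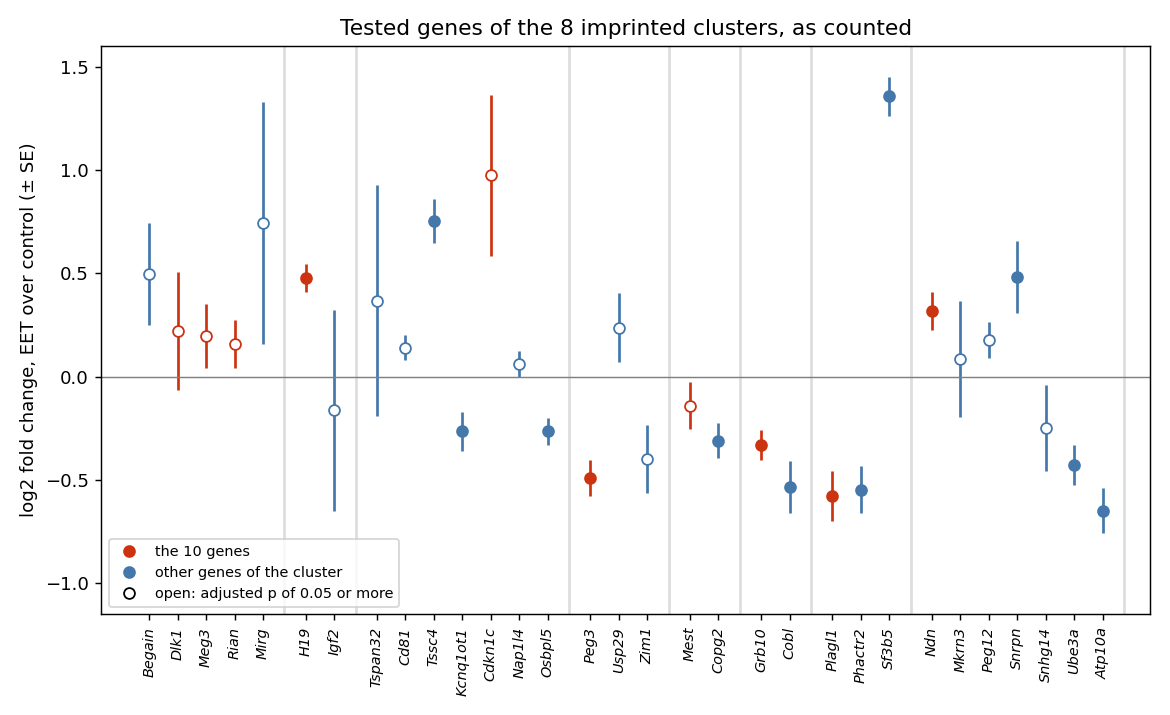
Log2 fold change of EET over control with its standard error, as counted, for the tested genes of the 8 clusters in which the 10 genes lie, separated by grey lines; the 10 genes are red, their neighbours blue, and open points did not pass. Sf3b5 at 1.36 lies beside Plagl1 at −0.58, and Usp29 at 0.24 beside Peg3 at −0.49.

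Over all imprinted genes and their neighbours listed for this comparison, apart from the 10, 47 of 73 were tested: 7 rose and 15 fell, the median log2 fold change being −0.16 and the median transcript 3961 bp, against 0.005 and 2984 bp for all genes tested. With the trend removed 6 were higher and 8 lower, at a median of −0.02. The shares over all genes tested were 24.6% higher and 23.3% lower as counted, and 15.6% and 16.9% with the trend removed. The 7 genes of the imprinted gene network outside the 10 held 1 that rose and 3 that fell (median −0.16), and 0 and 2 with the trend removed. Among genes outside these clusters, Igf2r, the maternally expressed receptor that clears IGF2, fell from 152 ± 14 to 80.8 ± 9.55 CPM (−0.91 ± 0.09, adjusted p = 3.65e-06; −0.24 with the trend removed, adjusted p = 0.000713). The noncoding RNA Peg13 had −0.76 ± 0.14 (adjusted p = 0.000348) and Zdbf2 −0.76 ± 0.17 (adjusted p = 0.00215), and Peg13 was also called with the trend removed (−0.47). Commd1, a regulator of copper handling and NF-kB, rose from 7.46 ± 1.46 to 16.4 ± 1.81 CPM (1.13 ± 0.14, adjusted p = 1.91e-05; 1.37 with the trend removed). That second value rests on a longest annotated transcript of 4508 bp, and which isoforms the cells express is not known. Mcts2 rose by 0.81 ± 0.13, a call lost with the trend removed (−0.02, adjusted p = 0.906), and H13, which encodes a signal peptide peptidase, by 0.34 ± 0.08 and by 0.67 with the trend removed.

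Genes taken as imprint regulators, whose proteins set, guard or remove DNA methylation or act on chromatin, were counted as a further list. Of 20 tested, 2 rose and 12 fell, the median log2 fold change being −0.32 and the median transcript 4516 bp. With the trend removed 1 was higher and 9 were lower, at a median of −0.08. Among all genes tested, 24.6% passed as higher and 23.3% as lower on the counts, and 15.6% and 16.9% once the trend was removed. Medians for that whole set were 0.005 as counted, −0.03 with the trend removed and 2984 bp in length. Dnmt1, the maintenance DNA methyltransferase, fell from 441 ± 16.2 to 304 ± 29.2 CPM (−0.54 ± 0.07, adjusted p = 3.83e-05; −0.13 with the trend removed, adjusted p = 0.0332). Arid4a and Arid4b, chromatin proteins, had −0.89 ± 0.09 and −0.76 ± 0.10, and −0.59 and −0.41 with the trend removed, all called. Eed, a subunit of Polycomb complex PRC2, rose by 0.46 ± 0.07 (0.21 with the trend removed), and Dnmt3l, a cofactor of de novo methylation, rose from 0.952 ± 0.362 to 1.88 ± 0.518 CPM (0.98 ± 0.34, adjusted p = 0.028; not called with the trend removed, adjusted p = 0.167).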

How the data were processed

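Poly(A) RNA was sequenced in 3 control and 3 EET libraries. The authors deposited whole-number counts per gene, not normalized, with 30371291 to 37243882 counts a library. The submitters' processing notes name FastQC, cutadapt, DESeq2 and GRCm38. No source used here names the aligner, counter, strand setting or annotation release. Of counts from 11 to 50, 61.28 to 65.62% were even, so read pairs may have been counted as 2, and counts divided by 2 were tried.

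Genes were tested with edgeR 4.0.16 in R 4.3.3 (filterByExpr, TMM, robust glmQLFit, glmQLFTest), with Benjamini-Hochberg adjustment over 16097 genes and a threshold of 0.05. In the second fit an offset held each library's loess trend (span 0.3, degree 2) on transcript length and GC content, fitted on protein-coding genes. Lengths and coordinates came from GENCODE M21, to which 53365 of 55494 rows matched by symbol. Shares and ratios were compared by exact two-sided permutation tests. On simulated counts of EET against control, 59.7% of genes changed 1.5-fold were recovered among 15794 genes, with 15 false calls of 157. With the length and GC trend of these data added to the simulated counts, 5859 of 6012 calls were false where it was left in. Where it was removed by the same kind of loess, 13 of 160 were false (15758 genes). Every call outside the genes changed on purpose was false by construction. The simulation therefore does not give the share of false calls in the fit as counted, which also leaves the trend in. The trend added was estimated by the same loess that removed it, so the simulation cannot show how well the second fit suits these data. No pair of libraries was a duplicate (lowest chi-square per gene 5.889).

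The genes and lists were chosen with earlier results of these data known. All 10 genes and every tested gene of their clusters could be named, and of other imprinted genes and imprint regulators the 3 higher and 3 lower calls with the smallest p. Of the markers, Pax7, Myf5, Myod1 and Myog could be named. Alternatives were RLE scaling, library totals, other filters, DESeq2 1.42.0, limma-voom (limma 3.58.1), non-robust estimation, a block for the replicate number, the leaving out of an rRNA row, of control 1 with EET 3 and of each library in turn, and, chosen after seeing the data, merged exon length, a loess of degree 1 and a repeat of the library and block alternatives in the second fit.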

Additional observations from a re-analysis of the deposited data

How the results depend on the processing

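As counted, the calls of H19, Peg3, Grb10 and Plagl1 kept their direction and passed under RLE scaling, library totals, both filters, DESeq2, limma-voom and each library left out, and no scaling moved the median of all genes by over 0.1 (log2). Removing the length and GC trend moved the most, and the cause of that trend was not tested. It gave 2505 genes higher, 5 members higher and 1 lower, 8 other listed imprinted genes and neighbours lower and 1 imprint regulator higher. Meg3 was at 1.05, Rian at 0.57, Peg3 at 0.15 (reversed) and Grb10 at 0.0077 (reversed, not called). Removing the trend together with the replicate block gave 2615 genes higher, 5 members higher and 1 lower, and 9 other listed imprinted genes and neighbours lower. Meg3 was then at 1.02, Rian at 0.57, Peg3 at 0.15 and Grb10 at 0.0076. Cdkn1c passed with counts divided by 2 (1.00) and without control 1 and EET 3 (1.27). Imprint regulators called higher numbered 1 with the filter at 5 CPM and 4 without control 1 and EET 3.

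Within the trend-removed fit, merged exon length gave 3 members and 2 regulators higher, and leaving out control 1 and EET 3 gave 5 regulators higher. Grb10, not called there, changed sign without control 1 and EET 3 (−0.0255) and with a loess of degree 1 (−0.0035), and ranged from −0.0128 to 0.0221 with each library left out.

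With each library left out in turn, as counted, members called higher numbered 1 to 3 and regulators called higher 1 to 3. Ndn ranged from 0.25 to 0.39 (not called without control 2), Meg3 from −0.0149 to 0.34 (below 0 without EET 2) and Cdkn1c from 0.76 to 1.27 (called without EET 3). With the trend removed, members called lower numbered 0 to 1, all genes lower 1795 to 2729 and other listed imprinted genes and neighbours lower 4 to 9. In that fit regulators higher numbered 1 to 3 and lower 5 to 9, Peg3 ranged from 0.12 to 0.17 and Plagl1 from −0.32 to −0.12.

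Same-numbered libraries did not deviate together (correlations of −0.0501 to 0.00893). With 3 libraries a group this cannot decide whether same-numbered libraries share an animal or a preparation, and the labels do not say. The replicate block gave 4238 genes higher and 4083 lower and changed no call of the 10 genes, and with the trend removed it gave 2 regulators higher.

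Cdkn1c and Dlk1 had the fewest counts, under 100 in every library, and the change detectable at such counts was not measured.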
